A study of Arabidopsis thaliana with 6 samples.

Results

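Families of early auxin response genes, the Aux/IAA repressors and the GH3 conjugating enzymes, were followed in bundle sheath cells (BSCs) and mesophyll cells (MCs) of the Arabidopsis leaf. Members were taken by name alone: a probe set of 1 gene whose current symbol is IAA, ARF, SAUR, PIN, LAX, GH3. or AFB followed by a number, or AUX1 or TIR1. Of the 83 Arabidopsis genes with such a symbol, 11 had a probe set named here, out of 13286 named genes on the array. They were 7 of the 24 genes with an IAA symbol (IAA18, IAA20, IAA29, IAA30, IAA31, IAA33 and IAA34). The others were 4 of the 5 genes with a GH3 symbol (GH3.1, GH3.3, GH3.9 and GH3.17), and each gene had 1 probe set. Family members under other symbols, such as WES1, are not in these counts. No ARF, SAUR, PIN, LAX, AFB, AUX1 or TIR1 gene had a named probe set, so the receptors, response factors and membrane carriers among these families were not analysed here. Of these families, the results cover Aux/IAA and GH3 genes only, and whether each member responds to auxin was not tested. Another 14 auxin pathway genes outside the families are described after them.

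The samples were 3 batches of BSC protoplasts and 3 batches of MC protoplasts, each a pool of 20 hand-picked protoplasts hybridized to 1 Affymetrix ATH1 array. All came from untreated Landsberg (Ler) plants that carried green fluorescent protein behind the SCARECROW promoter, so that BSCs were recognised by their fluorescence and smaller diameter and MCs by lack of fluorescence. Both cell types had been released by wall-digesting enzymes and their RNA amplified. Arrays carry the numbers of their labels (3, 5 and 7 for BSCs; 4, 6 and 8 for MCs), and neither plant age nor the pairing of the batches is given in the sources used here. Values are log2(NREL), the log2 of the normalized expression level that the authors deposited per probe set.

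Auxin acts by bringing Aux/IAA proteins to the receptors TIR1 and AFB, which mark them for degradation and so free the ARF transcription factors that they hold back. Many Aux/IAA and GH3 genes are themselves switched on by auxin: the new Aux/IAA protein closes a negative feedback loop, and GH3 enzymes join auxin to amino acids and lower its active pool. In leaves auxin guides the formation of veins, next to which the bundle sheath lies.

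BSC array 7 differed most from the rest. Its Pearson's r with the other arrays, over all probe sets, was 0.53 to 0.75, against 0.81 to 0.94 among the others. On it 78 probe sets reached a log2(NREL) of 5 against 406 to 1157 on the others, and its median, 2.06, was above the 1.88 to 2.02 of the others. The 3 named photosynthesis markers LHCB4.1, RCA and PRK averaged 7.54, 6.59 and 3.16 on BSC arrays 3, 5 and 7, and 6.86, 8.80 and 6.34 on MC arrays 4, 6 and 8. The bundle sheath gene SCARECROW, whose promoter marked the cells, had no named probe set. AT5G41920, the gene of the related factor SCL23, had 1.86, 2.03 and 1.81 in BSCs and 1.89, 2.08 and 2.02 in MCs, and SWEET11, a sugar exporter, had 2.43, 3.60 and 3.80 in BSCs against 3.43, 3.55 and 2.78 in MCs. Neither of these 2 genes, from 10 listed for the bundle sheath, separated the cell types. AHA2, which the paper found higher in BSCs, was listed too but had no named probe set. The 3 named stomatal genes, FAMA, SPCH and MUTE, averaged 1.87 to 2.41 on the BSC arrays and 1.91 to 2.23 on the MC arrays. The vascular gene CLE41 had 2.34 to 2.64 in BSCs and 2.19 to 2.89 in MCs. No epidermal marker had a named probe set. What part such differences between the batches played in the values below was not tested. In pooled cells, fewer cells with a transcript and less transcript per cell cannot be told apart.

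No Aux/IAA or GH3 gene was called higher or lower in BSCs. A gene was called where limma, a linear model whose estimate of each probe set's spread borrows from all others, gave an unadjusted p under 0.05 with a fold change of at least 1.5, the thresholds of the study. The count was 0 of 11, where 0.501% of all 22746 probe sets were called (0.141% higher and 0.361% lower in BSCs). Unadjusted p values under 0.05 were also found for 0 of 11 members, by limma as by the methods' t-test, against 1.6% of all probe sets in limma. The smallest p among the members was 0.151 in limma, for IAA20, and the adjusted p was 1 for each of them. With 3 arrays against 3 an exact permutation test cannot go below 0.1, so none is given. The median log2 fold change, BSC minus MC, was 0.03 over the 11 members and 0.01 over all probe sets. Means were higher in BSCs for 6 of the 11 members, 5 of 7 Aux/IAA and 1 of 4 GH3 genes, and for 54.1% of all probe sets.

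**Figure D1:**
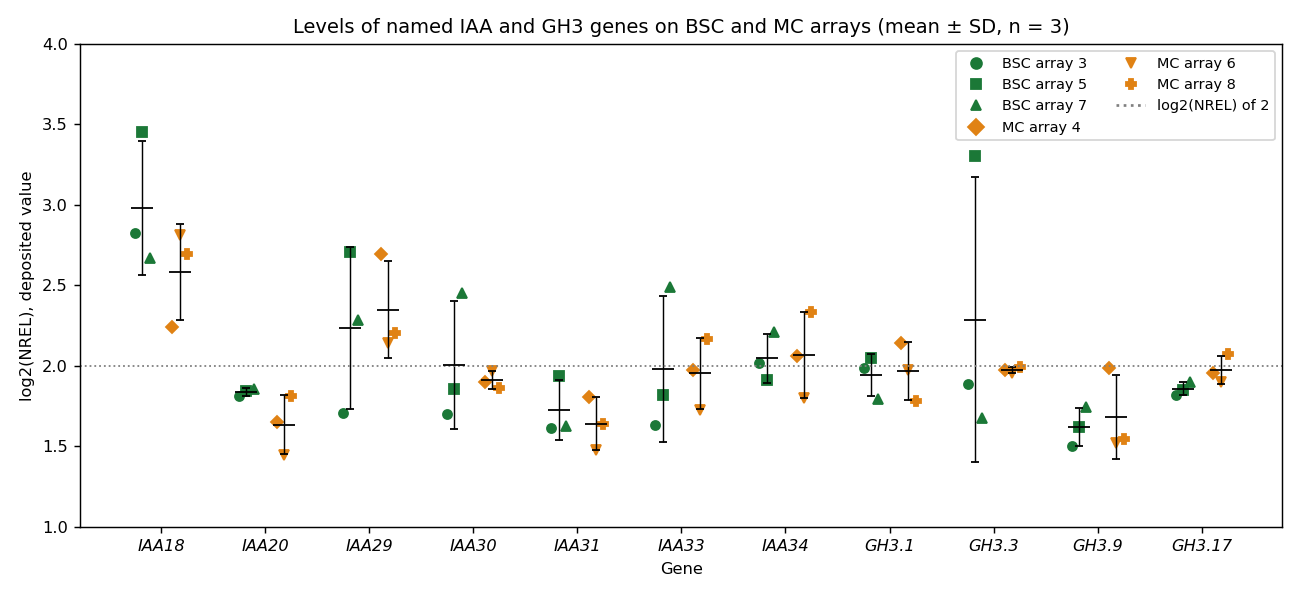
Deposited log2(NREL) (vertical axis) of the 7 Aux/IAA and 4 GH3 genes on each array, with BSC arrays in green to the left and MC arrays in orange to the right of each gene; bars give the mean and SD of 3 arrays and the dotted line the level of 2. The arrays of both cell types overlap for each gene except GH3.17, and GH3.3 on BSC array 5, at 3.30, lies far from its other arrays.

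The members' levels centred near the middle of each array. Their median was 1.81 to 1.99 on the 6 arrays, against 1.88 to 2.06 over all probe sets. The study counted a gene as expressed at a log2(NREL) of 2, which is near the median of each array, and as highly expressed at 3.5. A mean of at least 2 in both cell types was reached by 3 of the 11 members, IAA18, IAA29 and IAA34, as by 40.6% of all named genes. For 6 of 11 members both means were under 2 (48.0% of all named genes), and 0 of 11 reached a mean of 3.5 in either cell type, where 6.38% of named genes did. The lowest single value was 1.44, for IAA20 on MC array 6, and the highest 3.46, for IAA18 on BSC array 5. Since probe sets differ in brightness, these levels do not order the genes by transcript amount.

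IAA18 was the one member above the median of its array on all 6 arrays, as 28.8% of all probe sets were. It encodes an Aux/IAA repressor that carries the degron, the short motif by which the receptors hold these proteins. IAA18 had a log2(NREL) of 2.83, 3.46 and 2.67 on BSC arrays 3, 5 and 7, and 2.24, 2.81 and 2.70 on MC arrays 4, 6 and 8. The highest BSC value came from array 5 and the lowest MC value from array 4, and the remaining arrays of both cell types lay between 2.67 and 2.83. The mean was 2.98 ± 0.42 in BSCs and 2.58 ± 0.30 in MCs (SD, n = 3 each), giving a log2 fold change of 0.40 (standard error 0.26, 95% interval -0.24 to 1.04, unadjusted p = 0.178 in limma). The difference was 0.16 without BSC array 5, 0.23 without MC array 4 and 0.46 to 0.56 without each of the others.

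IAA29, a gene known to be induced in shade through phytochrome-interacting factors, varied widely within both cell types. It had 1.71, 2.71 and 2.29 in BSCs and 2.70, 2.14 and 2.21 in MCs, so that the BSC arrays spanned the whole range of the MC arrays. Its log2 fold change was -0.11 (standard error 0.29, interval -0.84 to 0.61), and its sign turned without BSC array 3 (0.15) or MC array 4 (0.06).

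The other 5 Aux/IAA genes encode members known to have no degron or, for IAA31, an incomplete one, a feature that slows the turnover of Aux/IAA proteins. IAA20 had 1.81, 1.84 and 1.86 in BSCs and 1.65, 1.44 and 1.81 in MCs. Its BSC values were close together and the lowest of them nearly met the highest MC value, which overlapped it. The mean was 1.84 ± 0.02 in BSCs and 1.64 ± 0.19 in MCs (SD, n = 3 each), giving a log2 fold change of 0.20 (standard error 0.12, interval -0.10 to 0.51), and it stayed between 0.11 and 0.29 when each array was left out. All 6 values of IAA20 were below the median of their array, as were those of IAA31 and of GH3.9 (26.7% of all probe sets).

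IAA30 and IAA33 had the same highest and the same lowest array, an order also common over all probe sets. IAA30 had 1.70, 1.85 and 2.46 in BSCs and 1.90, 1.97 and 1.86 in MCs. IAA33 had 1.63, 1.82 and 2.49 in BSCs and 1.98, 1.72 and 2.16 in MCs. For both genes BSC array 7 gave the highest of the 6 values and BSC array 3 the lowest. Both held at once for 13.5% of all probe sets; BSC array 7 held the highest value of 33.7% and BSC array 3 the lowest of 30.3%. The log2 fold changes, 0.09 (standard error 0.21) for IAA30 and 0.03 (0.26) for IAA33, became -0.13 and -0.23 without BSC array 7.

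IAA31 had 1.61, 1.94 and 1.62 in BSCs and 1.81, 1.48 and 1.64 in MCs. IAA34 had 2.02, 1.91 and 2.21 in BSCs and 2.06, 1.80 and 2.34 in MCs. Both genes had overlapping arrays and log2 fold changes close to 0, 0.08 (standard error 0.15) for IAA31 and -0.02 (0.17) for IAA34.

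GH3.3 held the widest spread of the members. GH3.3 is an auxin-inducible enzyme that conjugates auxin with amino acids and, with its close relatives, acts in adventitious rooting. GH3.3 had 1.89, 3.30 and 1.67 in BSCs and 1.97, 1.96 and 1.99 in MCs. A single batch, BSC array 5, was high, and the other BSC arrays were both below all MC arrays. The value of BSC array 5 was 1.31 above the next highest array, a 2.48-fold gap. In 3.89% of all probe sets 1 array exceeded the next by as much, and in 0.242% that array was BSC array 5. The mean was 2.29 ± 0.88 in BSCs and 1.97 ± 0.02 in MCs (SD, n = 3 each), giving a log2 fold change of 0.31 (standard error 0.43, interval -0.76 to 1.39). Without BSC array 5 it was -0.19, and without BSC array 7 it was 0.62. BSC array 5 also held the highest value of IAA18, IAA29 and IAA31, for IAA29 by only 0.012. It was thus highest for 4 of the 11 members and for 11.9% of all probe sets. BSC array 7 was highest for 3 of the 11 (33.7% of all probe sets), and BSC array 3 lowest for 5 of the 11 (30.3%).

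Array weights are a setting of limma that gives less weight to arrays with more scatter. With them GH3.3 (log2 fold change 1.18) and IAA18 (0.92) passed the study's thresholds, with limma's smallest adjusted p among the members at 0.194. The estimated weights were 0.342, 6.83 and 0.339 for BSC arrays 3, 5 and 7 and 2.08, 0.402 and 1.52 for MC arrays 4, 6 and 8, so that the BSC mean was mostly that of array 5. Their estimation had stopped before it converged, and 885 of all probe sets passed under this setting against 114 without weights.

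GH3.17, whose enzyme prefers glutamate as the amino acid joined to auxin, was the one member whose arrays did not overlap between the cell types. It had 1.82, 1.85 and 1.90 in BSCs and 1.96, 1.90 and 2.07 in MCs. The highest BSC value and the lowest MC value were equal to 2 decimals, so the separation was smaller than the rounding used here. Arrays without overlap occurred for 6% of all probe sets. The mean was 1.86 ± 0.04 in BSCs and 1.98 ± 0.09 in MCs (SD, n = 3 each), giving a log2 fold change of -0.12 (standard error 0.10, interval -0.35 to 0.12, unadjusted p = 0.262 in limma). It was negative whichever array was left out (-0.16 to -0.07).

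GH3.1, another auxin-inducible member, had 1.98, 2.05 and 1.80 in BSCs and 2.14, 1.97 and 1.78 in MCs. GH3.9, a gene linked to primary root growth, had 1.50, 1.62 and 1.74 in BSCs and 1.99, 1.52 and 1.55 in MCs, with MC array 4 above all others. Neither separated the cell types, with log2 fold changes of -0.02 (standard error 0.14) and -0.06 (0.16). Without MC array 4 the sign of both turned, to 0.07 for GH3.1 and 0.09 for GH3.9.

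**Figure D2:**
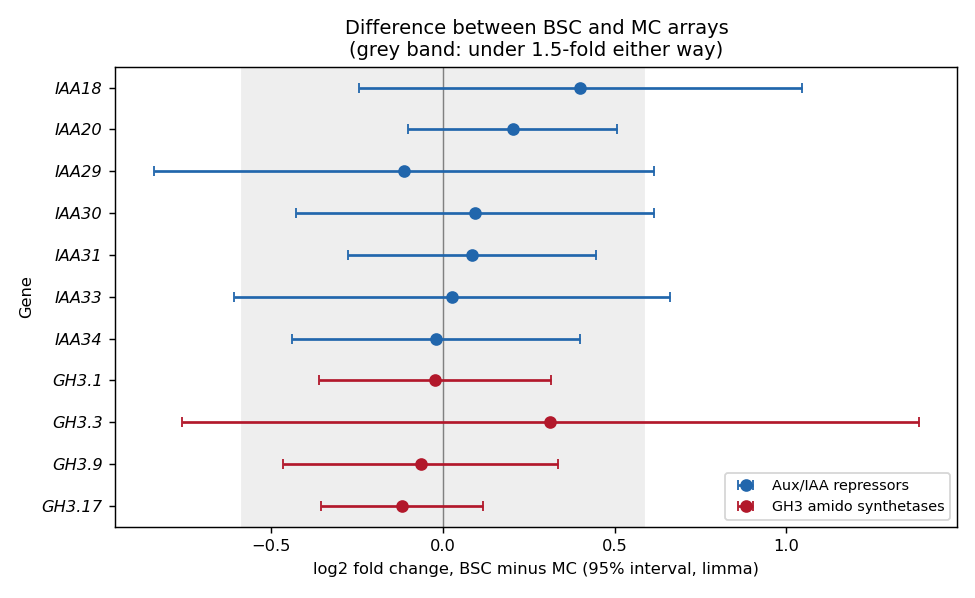
Log2 fold change, BSC minus MC (horizontal axis), of each gene with its 95% interval from limma; Aux/IAA genes are blue, GH3 genes red, and the grey band marks differences under 1.5-fold. All 11 intervals include 0, and 6 of the 11 lie inside the band.

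For some members the intervals were narrow enough to bound the difference. The 95% interval lay inside a 1.5-fold difference in either direction for 6 of the 11 members, IAA20, IAA31, IAA34, GH3.1, GH3.9 and GH3.17, as for 58.8% of all probe sets. It was narrowest for GH3.17, which allowed 0.782 to 1.08 times the MC level in BSCs. These bounds are on the deposited scale, on which values near the background of an array change less than the transcript does. IAA18 allowed 0.844 to 2.06 times the MC level, IAA29 0.558 to 1.53 times and GH3.3 0.591 to 2.61 times, so for these the intervals do not exclude a difference of more than 1.5-fold. With IAA30 (0.744 to 1.53 times) and IAA33 (0.656 to 1.58 times), 5 members had an interval that passed 1.5-fold.

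**Figure D3:**
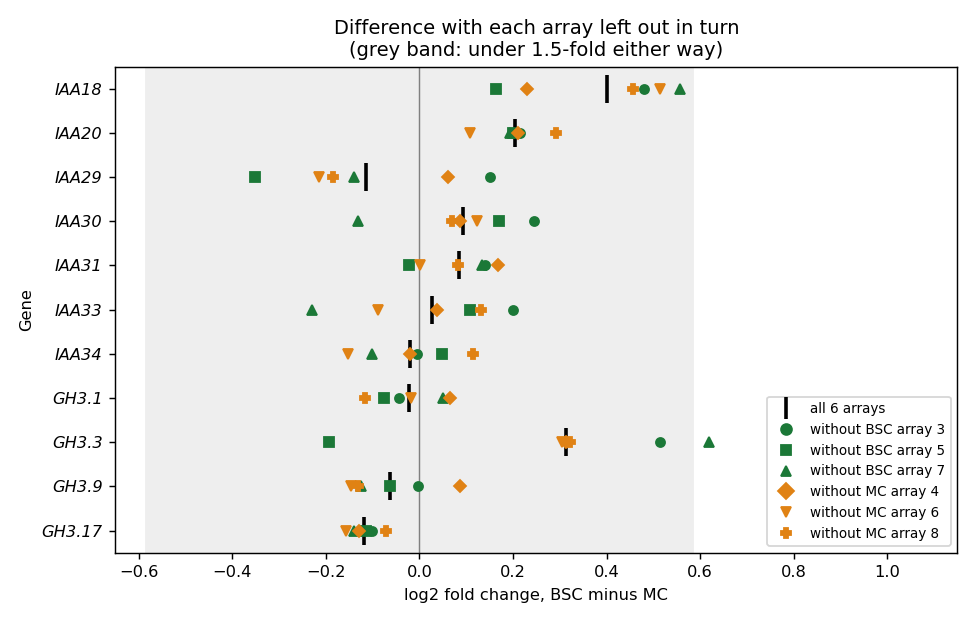
Log2 fold change, BSC minus MC (horizontal axis), of each gene with all 6 arrays (black bar) and with each array left out in turn (symbols, green for a BSC and orange for an MC array); the grey band marks differences under 1.5-fold. GH3.3 ranges from -0.19 to 0.62, and IAA18, IAA20 and GH3.17 keep their sign throughout.

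The sign of a member's difference depended on single arrays for 8 of the 11 genes: all but IAA18, IAA20 and GH3.17 changed sign when some array was left out. None passed the thresholds in limma with any one array left out. Relative to its array's median, the value of a member lay between -0.47 (GH3.9 on MC array 8) and 1.48 (IAA18 on BSC array 5). The number of members above the median of their array was 4, 4 and 5 on BSC arrays 3, 5 and 7 and 4, 6 and 5 on MC arrays 4, 6 and 8.

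Genes of the auxin pathway outside these families were examined from lists written by symbol, of which 14 genes had a named probe set. The count called was 0 of 14, where 0.501% of all probe sets were called. Their median log2 fold change was 0.12, against 0.01 over all probe sets. Means were higher in BSCs for 11 of 14, and for 54.1% of all probe sets. WES1, the GH3 gene also known as GH3.5, had 3.03, 2.26 and 2.41 in BSCs and 2.73, 2.14 and 2.14 in MCs (log2 fold change 0.23, standard error 0.27). BSC array 3 was its highest array and the cell types overlapped.

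The 4 named auxin synthesis genes, the flavin monooxygenases YUC2, YUC4, YUC6 and YUC11, had higher means in BSCs without passing the thresholds. YUC6 had 2.229, 2.230 and 2.204 in BSCs and 1.99, 1.84 and 2.13 in MCs. All its BSC arrays were above all its MC arrays, as for 715 of all 22746 probe sets and for 1 of the 14 pathway genes. Its log2 fold change was 0.23 (standard error 0.11, interval -0.04 to 0.50, unadjusted p = 0.0791 in limma). YUC2 had 1.97, 2.27 and 2.41 in BSCs and 2.04, 1.95 and 1.99 in MCs, and YUC11 had 1.91, 1.80 and 2.11 in BSCs and 1.84, 1.58 and 1.70 in MCs, both with overlapping arrays and log2 fold changes of 0.22 and 0.24. YUC4 differed least of these 4 genes (0.12), with 2.95, 3.19 and 3.34 in BSCs and 3.16, 2.77 and 3.19 in MCs. For all 4 genes the 95% interval lay inside a 1.5-fold difference, as it did for 9 of the 14 pathway genes and 58.8% of all probe sets.

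Of 2 glucosyltransferases that act on auxin, UGT74D1 had 2.25, 1.74 and 2.09 in BSCs and 1.84, 1.71 and 1.47 in MCs (log2 fold change 0.36, standard error 0.18, unadjusted p = 0.0902 in limma), and UGT84B1 had a log2 fold change of 0.09. Kinases related to PINOID, which phosphorylates PIN carriers, were PID2, with 1.65, 1.82 and 1.69 in BSCs and 2.01, 1.66 and 2.16 in MCs (-0.22), and WAG2 (0.05). SKP2A, an F-box protein that binds auxin, had 2.63, 2.46 and 1.81 in BSCs and 1.73, 2.42 and 2.42 in MCs (0.11), low on 1 array of each cell type. Among auxin-responsive transcription factor genes, LBD16 (0.05) and LBD29 (0.20), which act in lateral root formation, had higher means in BSCs, and HAT2 (-0.18) and PUCHI (-0.13) lower ones. For each of these 9 genes the arrays of both cell types overlapped.

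**Figure D4:**
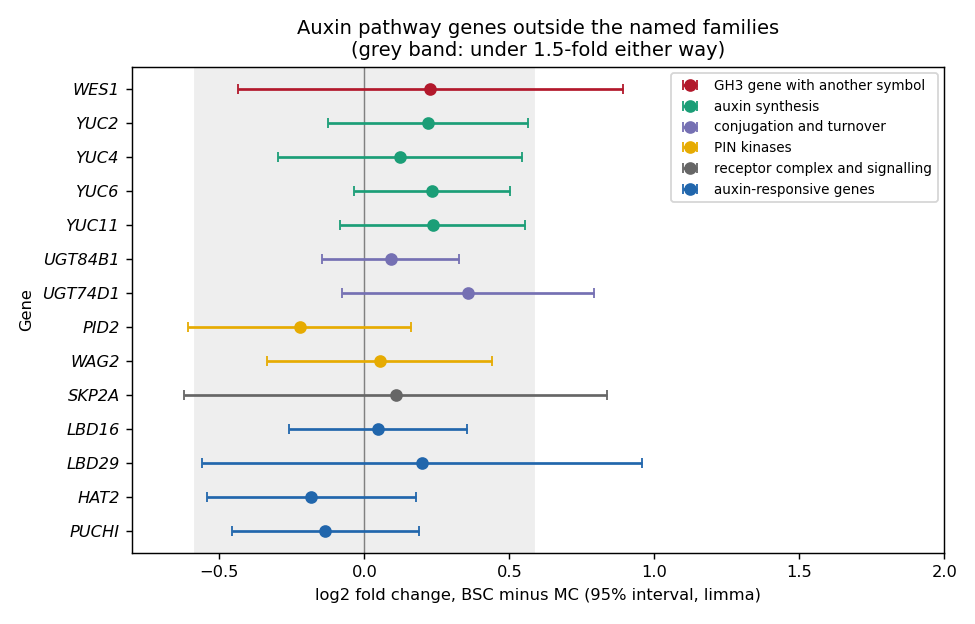
Log2 fold change, BSC minus MC (horizontal axis), with its 95% interval from limma, for the 14 auxin pathway genes outside the families, coloured by list; the grey band marks differences under 1.5-fold. All 14 intervals include 0, and 9 of the 14, those of the 4 YUC genes among them, lie inside the band.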

How the data were processed

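The authors deposited log2 values of 6 ATH1 arrays (3 BSC, 3 MC), 1 value a probe set. They describe robust multi-average normalization and summary in Partek (6.6 in the submitters' processing notes, another version in the paper). The deposited values were not equally distributed on all arrays, with medians from 1.88 (BSC array 3) to 2.06 (BSC array 7). Array files were not used here, and precision is limited by the number of arrays. Of 22810 probe sets, 64 controls were left out. The array annotation gave 13513 probe sets 1 gene and 503 several (left unnamed); 13436 matched the TAIR10.1 gene table by gene number, which set the symbols, and 8730 had no gene there. Members, lists and named genes were chosen with earlier results of these data known. All members are described. List genes were matched by symbol or synonym, and 3 photosynthesis, 2 bundle sheath, 1 vascular and 3 stomatal markers had a named probe set. The epidermal symbol FDH matched another gene, formate dehydrogenase, and was dropped after its values were seen.

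The fit ran over the remaining 22746 probe sets (limma 3.58.1, R 4.3.3; lmFit and eBayes, 2-sided, Benjamini-Hochberg over all). The paper calls the batches biological replicates without naming their plants. The p values set each difference against the spread between these arrays, which limma estimates partly from all probe sets. Alternatives were the methods' t-test (Student's, 2-sided), a trended prior, array weights, median centring, quantile normalization, a mean level of at least 2, the mean over a gene's probe sets, and each array left out. Figures were drawn with matplotlib 3.10.9.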

Additional observations from a re-analysis of the deposited data

How the results depend on the processing

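The count of 0 members called held under Student's t-test, a trended prior, median centring, quantile normalization and each array left out. It also held at a mean level of at least 2 (4 of the 11 members tested) and for the mean over probe sets. It became 2 with array weights (GH3.3 and IAA18). For the 14 pathway genes it was 0 under every one of these settings, 7 of them tested at a mean level of at least 2. With array weights the log2 fold change also changed sign, without a call, for GH3.1 (0.046), IAA29 (0.19), IAA30 (-0.018) and IAA33 (-0.18). Over all probe sets 114 calls became 41 in Student's t-test, 885 with array weights and 256 after quantile normalization. They numbered 90 to 418 with an array left out, the most without BSC array 7. The share of calls higher in BSCs was 28.1%, against 67.7% with array weights, 38.8% with a trended prior, 80.1% without BSC array 7, 47.3% without BSC array 5 and 11.7 to 23.3% without each of the others. The median log2 fold change of the members was 0.15 over the 4 with a mean level of at least 2, and -0.10 to 0.15 with an array left out. With an array left out, the difference ranged from -0.12 to 0.065 for GH3.1, -0.19 to 0.62 for GH3.3, -0.15 to 0.087 for GH3.9, -0.35 to 0.15 for IAA29, -0.13 to 0.24 for IAA30, -0.023 to 0.17 for IAA31, -0.23 to 0.20 for IAA33 and -0.15 to 0.11 for IAA34. Members at a mean of at least 2 in both cell types numbered 2 or 3 throughout. No paired analysis was run because the labels do not say which BSC and MC batches, if any, belong together. The causes of these changes were not tested.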
